A study of Mus musculus with 8 samples.

Results

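Sebaceous gland lipid genes were followed as a set of 10 genes that make, esterify, store or regulate the lipids of the gland: Scd1, Scd3, Mc5r, Pparg, Plin2, Awat2, Far2, Dgat2, Elovl3 and Soat1. They were chosen by symbol, and all 10 of them were found among the 32574 genes of the deposited table. The study asks how mouse skin repairs itself and profiled cells of the skin epidermis, labelled epithelial and sorted by flow cytometry, with and without ablation. Of the 4 groups of 2 libraries, K14 control and Lrig1 control are labelled wild type, and K14 ablation and Lrig1 ablation carry a basal lineage ablation. K14 is a keratin made by basal cells of the epidermis, and LRIG1 is known as a marker of stem cells near the sebaceous gland. The labels do not state whether these names stand for the Cre driver, the sorted cells or the ablated lineage, nor the strain, age, ablating agent or time after ablation. They do not say either that replicates were separate animals. P-values reflect the spread between libraries alone, and in the control pairs this spread may be technical. The ablation replicates differed in reads of Y-linked genes (2.12 and 1759 in K14, 0.887 and 3718 in Lrig1). These replicates were thus not the same mix of animals, and their spread was not technical alone.

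Sebaceous glands open into the upper hair follicle and are renewed by basal cells that fill with lipid droplets as they mature and then burst to release sebum. Mouse sebum is rich in wax esters, triglycerides and sterol esters made from long and often monounsaturated fatty acids. PPAR gamma is the nuclear receptor that drives the programme of lipid-storing cells, and the melanocortin 5 receptor is known for its part in sebum production. Several of these genes are also active outside the gland, in interfollicular keratinocytes or fat cells, so a level in sorted epidermal cells is not a count of sebocytes.

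In coordinates of build GRCm38, the regulators were Pparg (ENSMUSG00000000440, chromosome 6, 115360951 to 115490399, plus strand), the nuclear receptor, and Mc5r (ENSMUSG00000007480, chromosome 18, 68337596 to 68342446, plus strand), the melanocortin receptor. Scd1 (ENSMUSG00000037071, chromosome 19, 44394455 to 44407879, minus strand) and Scd3 (ENSMUSG00000025202, chromosome 19, 44203269 to 44244016, plus strand) encode stearoyl-CoA desaturases, which place the double bond in saturated fatty acids. Elovl3 (ENSMUSG00000038754, chromosome 19, 46131897 to 46135694, plus strand) encodes an elongase of long-chain fatty acids. The esterifying enzymes were encoded by Dgat2 (ENSMUSG00000030747, chromosome 7, 99153658 to 99182719, minus strand), which completes triglycerides, Awat2 (ENSMUSG00000031220, chromosome X, 100402221 to 100442717, minus strand), a wax ester synthase, and Soat1 (ENSMUSG00000026600, chromosome 1, 156424525 to 156474331, minus strand), which esterifies cholesterol. Far2 (ENSMUSG00000030303, chromosome 6, 148047259 to 148182758, plus strand) encodes a reductase that makes the fatty alcohols of wax esters. Plin2 (ENSMUSG00000028494, chromosome 4, 86648386 to 86670060, minus strand) encodes a coat protein of lipid droplets.

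The libraries held 6458636 to 11654135 reads, and 3 reads corresponded to 2.12 to 4.23 normalised reads, the deposited unit of reads divided by a library's size factor. Counting error is the least error that such floors and all read counts carry, since amplified reads need not be independent molecules. The mitochondrial share of normalised reads was 2.34 to 2.91% for K14, but 6.29 and 6.89% for Lrig1 control and 3.14 and 4.14% for Lrig1 ablation. Basal keratinocyte markers were present in every library, with a summed level of 122639 to 258494 over 12 genes and none at 0. Reads of the sexes differed between libraries: 4 Y-linked genes, Ddx3y, Eif2s3y, Kdm5d and Uty, summed to 2.12 normalised reads in K14 ablation 1 and 0.887 in Lrig1 ablation 1, but to 947 to 3718 in the other libraries. Xist, the RNA of the inactive X chromosome of females, was at 66.1 in Lrig1 ablation 2 and at 6948 to 25230 elsewhere. These genes were chosen after their values were seen. Of the replicate pairs, K14 ablation and Lrig1 ablation stood furthest apart, with a chi-square per gene of 27.7 and 39.5, against 1.57 in K14 control and 2.58 in Lrig1 control.

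Per kilobase of exon, Scd1 had the highest level of the 10 genes in all 4 groups and Awat2 the lowest. In K14 control the order was Scd1 at 1993 normalised reads per kilobase, Plin2 at 439.8, Dgat2 at 140.4, Far2 at 136, Soat1 at 97.8, Pparg at 67.6, Elovl3 at 32.5, Mc5r at 26.1, Scd3 at 17.0 and Awat2 at 4.0. In this order 0 of 9 neighbouring pairs had overlapping replicates. In Lrig1 control Scd1 was again first at 1093, and Dgat2, at 244, stood above Plin2, at 178. There 3 of 9 neighbouring pairs overlapped, namely Elovl3 with Scd3, Scd3 with Soat1 and Mc5r with Awat2. In Lrig1 ablation 5 of 9 pairs overlapped, and in K14 ablation 9 of 9. Awat2 rested on 8 to 27 recovered reads per library, so its values are coarse. Adipocyte markers were scarce: of 10 listed markers in the table only 3 had enough reads to be tested, the summed level was 67.4 to 108, and Plin1, the coat protein of fat cell droplets, had at most 1.02 normalised reads.

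In the K14 libraries, the 10 genes split the 2 ablation replicates to opposite sides of the controls. Each of the 10 was lower in K14 ablation 1 than in both K14 controls and higher in K14 ablation 2 than in both, an arrangement found in 11.7% of all 18140 tested genes. For Awat2 this order is not informative. It had 9 and 8 recovered reads in the K14 controls, 10 in K14 ablation 1 and 12 in K14 ablation 2, so its lower side came from the size factor alone. Fewer cells of a type and less RNA per cell cannot be told apart in such bulk samples. The group means therefore differed little against their spread: 0 of 10 genes passed the limma test of K14 ablation against K14 control at an adjusted p of 0.05, where 0.187% of all tested genes passed. At an unadjusted p under 0.05 the count was also 0 of 10, against 12.8% of all genes, and edgeR and DESeq2 called 0 of the 10 as well (0.176% and 1.21% of all genes). The estimates ran from -1.11 (Pparg) to 0.16 (Awat2) on the log2(normalised reads + 1) scale, where changes of low genes come out too small, and their limma adjusted p from 0.537 to 0.924. That of Elovl3, -0.58, was 0.16 by edgeR and 0.17 by DESeq2. Their median was -0.78, beside -0.00 over all tested genes, but -0.22 by edgeR and by DESeq2, and the estimate of Pparg was -0.053 by edgeR.

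**Figure D1:**
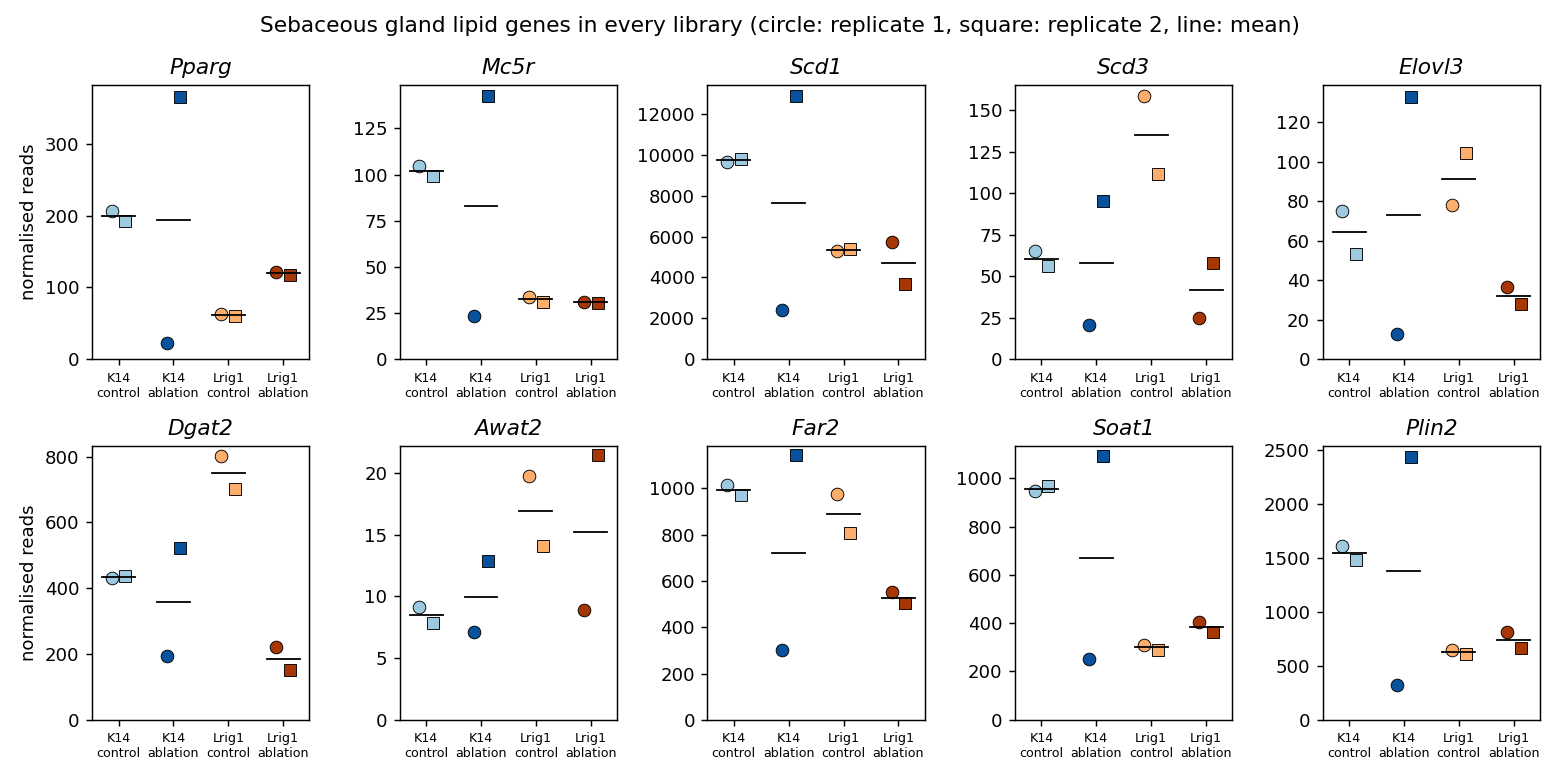
Normalised reads (linear y axis from 0) of the 10 sebaceous gland lipid genes in each of the 8 libraries, grouped on the x axis. Circles are replicate 1, squares replicate 2 and lines group means; in every panel K14 ablation 1 lies below and K14 ablation 2 above both K14 controls.

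Among the regulators, Pparg had 206 and 193 normalised reads in the K14 controls, 22.6 in K14 ablation 1 and 366 in K14 ablation 2. Its level was thus 11.3% of the control mean in ablation 1 and 183% in ablation 2, the widest split of the set at 16.1-fold between replicates. A gap as large was seen in 0.562% of tested genes. Mc5r was at 105 and 99.4 in control, 23.3 in ablation 1 and 143 in ablation 2, a 6.11-fold split. In control the replicates of both receptors lay within 10% of each other.

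Scd1, the most abundant gene of the set, had 9686 and 9813 normalised reads in K14 control, 2412 in ablation 1 and 12921 in ablation 2. The test of the group means gave -0.80 ± 0.64 (log2 difference ± SE, 95% interval -2.27 to 0.66, limma adjusted p = 0.632). Scd3 was at 65.0 and 56.1 in control, 20.5 in ablation 1 and 95.4 in ablation 2. The elongase gene Elovl3 was at 75.2 and 53.2 in control, 12.7 in ablation 1 and 133 in ablation 2, a 10.4-fold split. All 3 fatty acid enzymes were therefore lowest in K14 ablation 1 among the 8 libraries.

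Of the esterifying enzymes, Soat1 had 947 and 968 normalised reads in K14 control, 249.8 in ablation 1 and 1092 in ablation 2. Its ablation 2 value was the nearest of the set to control, at 114% of the control mean. Dgat2 was at 429.6 and 436 in control, 194 in ablation 1 and 523 in ablation 2, a split of 2.70-fold. Awat2 showed the smallest split, 1.82-fold, with 9.14 and 7.88 in control, 7.08 in ablation 1 and 12.9 in ablation 2, and 18.2% of tested genes had a gap as large. Far2 was at 1016 and 972 in control, 301 in ablation 1 and 1143 in ablation 2. The droplet coat gene Plin2 was at 1609.7 and 1479.8 in control, 321 in ablation 1 and 2438 in ablation 2.

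The direction in K14 ablation depended on which ablation library was kept. Without K14 ablation 2, 7 of 10 genes were called lower than control by limma (1.19% of all tested genes were): Scd1, Mc5r, Pparg, Plin2, Far2, Elovl3 and Soat1. Without K14 ablation 1, 0 of 10 were called (0.0888% of all genes), 3 of 10 had an unadjusted p under 0.05 (13.9% of all genes), and all 10 estimates were above 0, from 0.19 (Soat1) to 1.06 (Elovl3). The lone library is taken in such a fit to vary like the other groups. Y-linked reads and Xist move with this split, since K14 ablation 1 had nearly no Y-linked reads and K14 ablation 2 had 1759 with a lower Xist level of 6948; their part in it was not tested. In Lrig1 ablation, where replicate 1 likewise had almost no Y-linked reads and replicate 2 had 3718, the summed level of the 10 genes was 7970 in replicate 1 and 5639 in replicate 2. Scd1, at 5753 and 3699, made up most of that gap. Of the 10 genes 2, Scd3 and Awat2, were higher in replicate 2, and the median log2 gap was -0.14. The summed level of the 12 macrophage and Langerhans cell markers was 548 in K14 ablation 1 and 1516 in K14 ablation 2, against 449 and 581 in control. Cd74, the invariant chain of MHC class II, carried most of that gap, with 144 and 944. By gene 9 of the 12 lay above both controls in both replicates (27.4% of all tested genes did). Cd74 and Cd163 had the split of the lipid genes. The 17 suprabasal keratinocyte markers summed to 102834 and 73808, against 96899 and 91867, with Krt1 alone at 42464 and 24209 against 15925 and 15135. By gene 11 of these 17 lay below both controls in both replicates (25.7% of all tested genes did). Of the 17, 1 had replicate 1 above and replicate 2 below (9.23% of all tested genes), and 0 had the split of the lipid genes. Their part in the split was not tested.

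**Figure D2:**
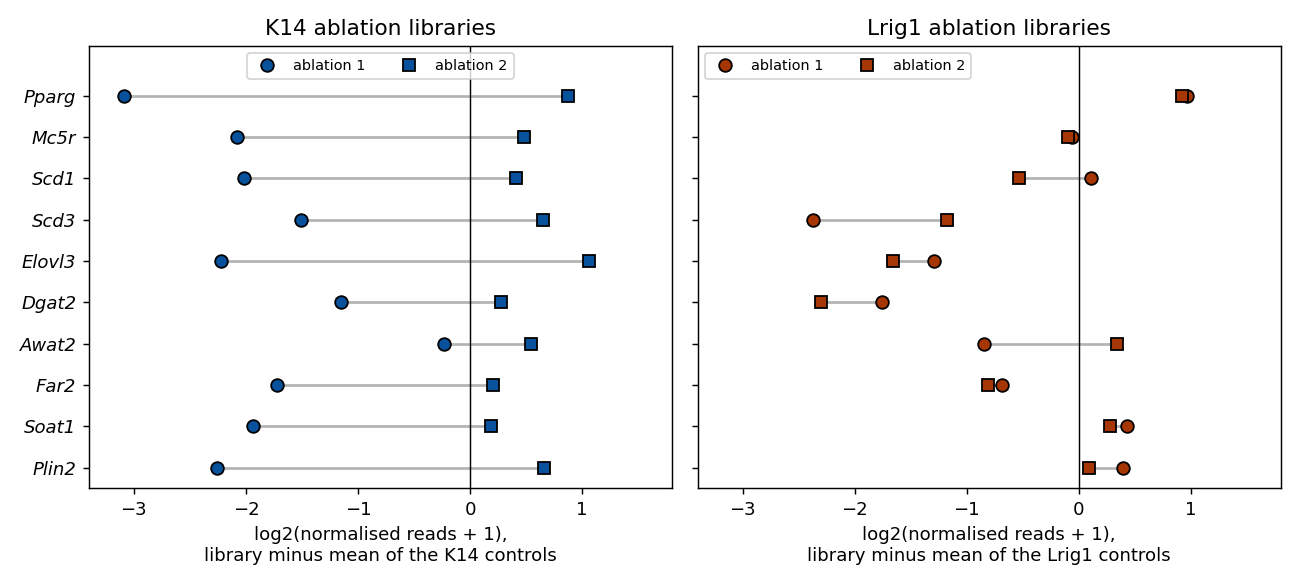
Each ablation library minus the mean of the controls of its population, on the log2(normalised reads + 1) scale (x axis), for each gene (y axis); circles are ablation 1, squares ablation 2, and grey lines join them. In K14 every pair straddles 0, from -3.08 to 0.87 for Pparg, whereas in Lrig1 the replicates of 7 genes lie outside both controls on one side.

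Promoter sequence was taken from RefSeq (build GRCm38.p6) because the 10 genes, apart from Awat2 with its few reads, ran together in the K14 libraries. Windows of 6 of the 10 are reported here. The 250 bases before the start site are shown 5′ to 3′ on the gene's strand for the droplet coat gene, the receptor, the cholesterol esterifying enzyme and the minor desaturase, so that their motifs can be compared. Capitals mark letters of the motifs searched on both strands: AGGTCA, which is the hexamer bound by nuclear receptors, its direct repeat AGGTCANAGGTCA, which contains that hexamer, TCACNCCAC, which is a sterol regulatory element, CCAAT, which is the CCAAT box, TATAAA, which is the TATA box, and GGGCGG, which is the GC box.
Plin2, chr4:86670060-86670309, minus strand: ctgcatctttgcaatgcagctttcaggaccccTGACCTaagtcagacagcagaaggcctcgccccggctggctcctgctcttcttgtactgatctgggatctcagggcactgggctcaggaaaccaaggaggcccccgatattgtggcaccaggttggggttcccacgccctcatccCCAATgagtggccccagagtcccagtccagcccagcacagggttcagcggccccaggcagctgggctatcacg
Pparg, first start site, chr6:115360894-115361143, plus strand: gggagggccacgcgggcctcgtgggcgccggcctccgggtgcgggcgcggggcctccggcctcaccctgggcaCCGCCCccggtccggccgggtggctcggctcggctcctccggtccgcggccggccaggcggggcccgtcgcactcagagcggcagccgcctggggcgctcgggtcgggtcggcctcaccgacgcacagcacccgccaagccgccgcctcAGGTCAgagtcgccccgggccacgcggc
Soat1, chr1:156474329-156474578, minus strand: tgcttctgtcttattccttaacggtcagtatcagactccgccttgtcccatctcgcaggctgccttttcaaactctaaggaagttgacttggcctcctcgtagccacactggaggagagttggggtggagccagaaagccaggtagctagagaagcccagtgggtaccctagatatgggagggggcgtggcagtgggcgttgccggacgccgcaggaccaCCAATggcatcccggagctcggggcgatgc
Scd3, chr19:44203038-44203287, plus strand: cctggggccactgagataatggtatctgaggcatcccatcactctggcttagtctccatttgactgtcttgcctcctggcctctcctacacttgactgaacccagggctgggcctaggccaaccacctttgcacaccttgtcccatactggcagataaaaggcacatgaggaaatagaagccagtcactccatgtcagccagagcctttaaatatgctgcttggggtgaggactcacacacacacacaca
The hexamer AGGTCA stood 218 bases before the Plin2 start, on the opposite strand, and 28 bases before the first Pparg start; 14% of 32851 RefSeq promoters hold it. The CCAAT box, held by 33.8%, was found in the Plin2 and Soat1 windows, and the GC box, held by 32.7%, in this Pparg window. The Scd3 window held none of the motifs; the TATA box is held by 12.4% of promoters. Neither AGGTCANAGGTCA (0.0335% of promoters) nor TCACNCCAC (1.05%) occurred in any of the 9 windows of the 6 genes. A match describes letters only, and a missing match says only that they are not in this window.

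In the Lrig1 libraries the set did not move as one. Dgat2 was the only gene of the 10 that passed the test of Lrig1 ablation against Lrig1 control, and it fell; 4.06% of all tested genes passed, and 3.3% passed as lower. The number of genes with both ablation libraries below both controls was 4 of 10 (26.4% of tested genes): Scd3, Far2, Dgat2 and Elovl3. The number above both controls was 3 of 10 (21.4%): Pparg, Soat1 and Plin2. The median estimate of the 10 genes was -0.23, beside -0.02 over all tested genes, and with values scaled to library totals it was 0.01 beside 0.23.

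In Lrig1 control Dgat2 had 801 and 702 normalised reads, and with ablation 221 and 151, so the groups did not overlap. The means were 751 ± 69.9 and 186 ± 49.3 (SD, n = 2 each). Its log2 difference was -2.03 ± 0.40 (SE, 95% interval -2.96 to -1.10, limma adjusted p = 0.0343). Dgat2 was called by every other tool and setting that kept all 8 libraries. Leaving out a library ended the call in 5 of 8 cases, namely K14 control 1 or 2, Lrig1 control 1 or 2, or Lrig1 ablation 2, with an adjusted p of up to 0.249 and estimates of -2.13 to -1.76.

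Scd3 and Elovl3 also lay lower in both Lrig1 ablation libraries without passing. Scd3 was at 158 and 111 in Lrig1 control and at 24.8 and 58.1 in ablation, an estimate of -1.78 ± 0.67 (95% interval -3.30 to -0.25, limma adjusted p = 0.186). Elovl3 was at 78.0 and 104 in control and at 36.4 and 27.9 in ablation (-1.47 ± 0.87, limma adjusted p = 0.395). The fatty alcohol gene Far2 was at 974 and 808 in control and 550.2 and 505 in ablation (-0.75 ± 0.50, limma adjusted p = 0.456). Each of these 3 genes had groups that did not overlap, with ablation values between 18.4% and 61.8% of the control mean.

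The receptor Pparg lay on the other side. It was at 62.9 and 60.6 normalised reads in Lrig1 control and at 122 and 118 in ablation, which is 197% and 191% of the control mean, with an estimate of 0.94 ± 1.00 (95% interval -1.35 to 3.24, limma adjusted p = 0.654). The fit shares 1 spread per gene over the 4 groups. Without K14 ablation 1 or without K14 ablation 2, Pparg, Far2, Dgat2 and Elovl3 were called (4 of 10, against 5.9% and 5.8% of all genes), Pparg higher and the other three lower. With all K14 libraries left out, so that only the Lrig1 groups were compared, Dgat2 alone was called (1 of 10, against 0.984% of all genes), and Pparg (limma adjusted p = 0.15), Far2 (0.127) and Elovl3 (0.111) were not. Soat1 was at 309.7 and 289 in control and 405 and 362 in ablation, and Plin2 at 644 and 606 in control and 819 and 665 in ablation; neither passed (limma adjusted p = 0.77 and 0.897).

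Scd1, Mc5r and Awat2 had overlapping or straddling values in Lrig1. Scd1 was at 5281 and 5412 in control, 5753 in ablation 1 and 3699 in ablation 2, and its estimate of -0.21 was 0.038 with values scaled to library totals. Mc5r stayed in a narrow band, with 33.8 and 31.0 in control and 31.1 and 30.2 in ablation, an estimate of -0.08 (0.17 when scaled to library totals) with a 95% interval of -1.64 to 1.49. Awat2 was at 19.8 and 14.1 in control, 8.88 in ablation 1 and 21.5 in ablation 2. Beside these values, the summed level of the 17 suprabasal markers was 155754 and 172632 in control against 49997 and 49406 with ablation, that of the 12 macrophage and Langerhans cell markers 959 and 1257 against 292 and 326, and that of the 11 endothelial and mural markers 991 and 1105 against 79.9 and 158. Of 16 tested hair shaft and inner root sheath markers 8 fell (list median -1.76), where 3.3% of all tested genes fell. Below both controls in both replicates lay 14 of the 16 (26.4% of all tested genes did). Of the 12 basal keratinocyte markers 0 passed, with all 12 estimates above 0 and a list median of 0.52. Fabp4, an adipocyte and PPAR gamma target gene also made by endothelial cells, fell from 33.8 and 36.7 to 0.887 and 1.59. Their part in the Lrig1 results was not tested.

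**Figure D3:**
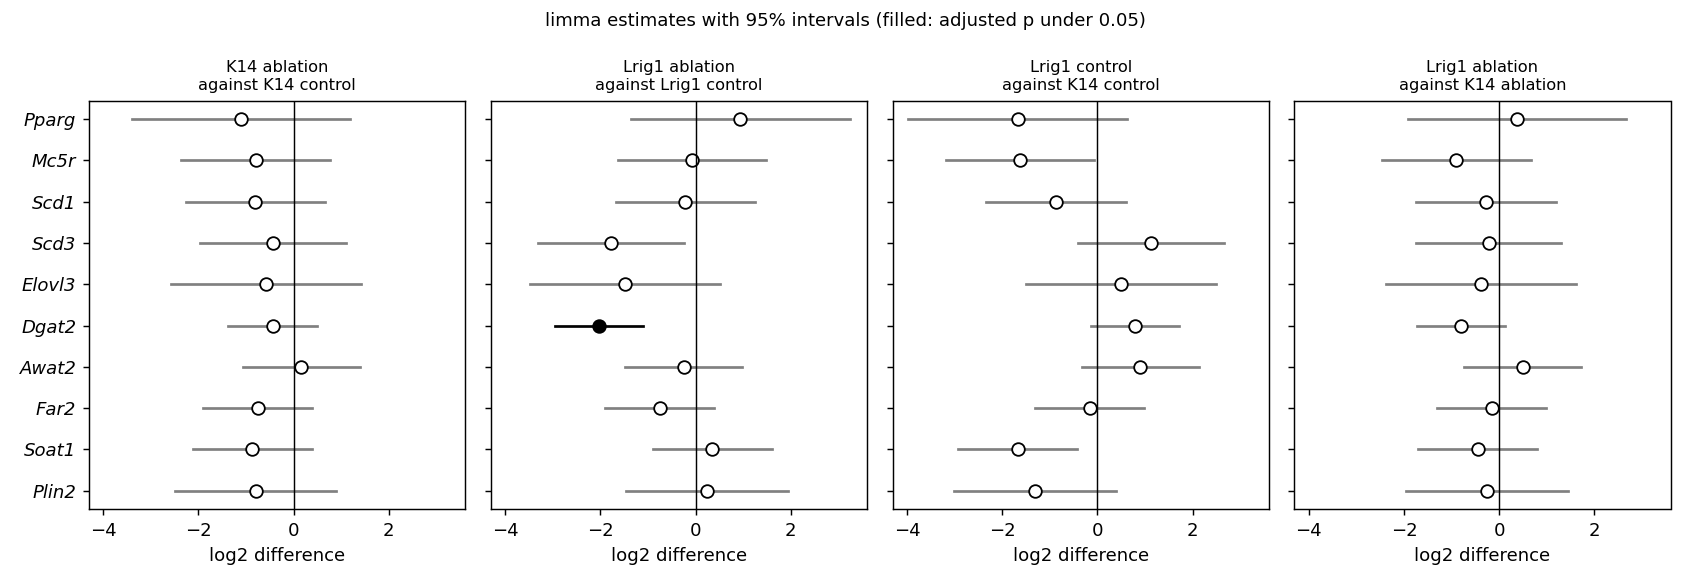
Estimated log2 difference (x axis) with its 95% interval for each gene (y axis) in 4 comparisons of the limma fit; filled points have an adjusted p under 0.05. Dgat2 in Lrig1 ablation against Lrig1 control (-2.03) is the single filled point among the 40 shown.

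The comparison of the 2 control groups asks how the K14 and Lrig1 populations differ without ablation. By limma 0 of 10 genes passed, against 8.79% of all tested genes, and at an unadjusted p under 0.05 the count was 2 of 10 (Soat1 and Mc5r), against 24.4%. In value, Scd1, Mc5r, Pparg, Plin2 and Soat1 were lower in both Lrig1 controls than in both K14 controls (34.4% of tested genes were). Scd3, Awat2, Dgat2 and Elovl3 were higher in both (34.5%). The 5 of 10 and 4 of 10 stand beside those background shares, so they are not taken as a trait of the set. Far2 overlapped, with 1016 and 972 in K14 control and 974 and 808 in Lrig1 control. Markers of other cells moved between the same groups. Higher in Lrig1 control were 10 of 17 suprabasal markers (list median 1.15), 9 of 16 of the hair shaft and inner root sheath (3.10), 8 of 10 endothelial and mural (4.60), 5 of 8 fibroblast (1.96) and 5 of 11 macrophage and Langerhans cell markers (1.67). Of the 12 basal markers 1 passed as higher and 1 as lower, with a list median of -0.99. Their part in the differences between the controls was not tested.

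Soat1 had the lowest p of the 10 genes between the controls, with 957 ± 15.1 normalised reads in K14 control and 299 ± 14.6 in Lrig1 control (SD, n = 2 each). Its estimate was -1.67 ± 0.54 (95% interval -2.93 to -0.42, limma adjusted p = 0.103), and DESeq2 called it (adjusted p = 0.00344), as the only member it called among 8.93% of all genes. Mc5r was at 102 ± 3.65 in K14 control and 32.4 ± 1.94 in Lrig1 control (-1.63 ± 0.68, limma adjusted p = 0.189). Pparg was at 199.6 ± 9.33 and 61.7 ± 1.59 (-1.68 ± 1.00, limma adjusted p = 0.351). The means of these 3 genes differed by more than 3-fold, while replicates of each control pair lay within 10% of each other. When only the 2 control groups entered the fit, 7 of 10 genes were called (42.9% of all tested genes were): Scd1, Mc5r, Pparg, Plin2 and Soat1 lower in Lrig1 control, and Scd3 and Dgat2 higher.

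Between the 2 ablation groups 0 of 10 genes passed, against 0.667% of all tested genes, with estimates of -0.90 (Mc5r) to 0.49 (Awat2). This comparison rests on the split K14 ablation pair: without K14 ablation 1, 8 of 10 genes were called lower in Lrig1 ablation (1.41% of all genes were), and without K14 ablation 2, 2 of 10, Pparg and Plin2, were called higher (1.33%). The test of whether the ablation effect differed between Lrig1 and K14 called 0 of 10, against 0.198% of all genes. At an unadjusted p under 0.05 it gave 1 of 10, against 15% of all genes: Dgat2, at -1.59 ± 0.57 (limma adjusted p = 0.26).

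Over the 8 libraries 2 sets of like profile were picked by hand, after their values were seen. On the log2(normalised reads + 1) scale, Scd1, Mc5r, Pparg, Plin2 and Soat1 correlated with each other at r = 0.86 to 0.98 over 8 libraries, and Scd3, Far2, Dgat2 and Elovl3 at 0.78 to 0.93. Pairs across the sets ran from 0.17 to 0.89, so the sets were not sharply apart. Far2 was at 0.89 with Scd1, but at 0.78 with Scd3 of its own set. The points share their size factors and the K14 ablation pair; without those 2 libraries the ranges were 0.66 to 0.99, 0.58 to 0.94 and -0.61 to 0.73 over 6 libraries. Awat2, on 8 to 27 reads per library, was in neither set. Its r was -0.1 to Scd1 and 0.23 to the mean profile of the 10 genes, but 0.69 to Scd3.

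Outside the set, the genes closest to its mean profile were Gpam (r = 0.985 over 8 libraries), the enzyme of the first step of glycerolipid synthesis, and Cidea (0.98), a lipid droplet fusion protein. Acoxl, Sdpr, Gm26588, Prelp, Tmem45b, Mybph and Cd36 followed at 0.959 to 0.976. CD36 is a fatty acid transporter. For K14, Cidea was at 55.9 and 46.3 normalised reads in control and at 8.49 and 67.5 in ablation, and for Lrig1 at 46.6 and 38.1 in control and at 26.6 and 21.5 in ablation. Like the 10 genes it lay below control in K14 ablation 1 and above it in K14 ablation 2. Its choice by likeness to their mean profile made such a split likely. The 5 genes most like Scd1 were Slc25a20, Sdpr, Adh1, Mgst1 and Mpc2, at 0.977 to 0.984.

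Scd2, a desaturase isoform outside the set, stood on the other side of control from Scd1 in K14 ablation 1. It had 2347 and 2389 normalised reads in K14 control, 4326 in K14 ablation 1 and 2799 in K14 ablation 2. Per kilobase of exon, Scd1 made up 81.4 and 81.5% of the summed level of Scd1 to Scd4 in K14 control, 38.2% in K14 ablation 1 and 83.0% in K14 ablation 2. In the Lrig1 libraries its share was 61.6 and 61.2% in control and 63.9 and 61.0% in ablation. Scd3 contributed 0.380 to 2.54% of the family over the 8 libraries. Scd1 and Scd3 lie 150438 bases apart and share 167 windows of 50 identical bases (4.66% of all Scd1 windows and 6.66% of all Scd3 windows occur in another gene), so some reads could belong to either. Far2 exons overlap those of Ergic2 on the other strand, and the sources used here do not say whether strand was used in counting; Ergic2 averaged 560.2 normalised reads.

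**Figure D4:**
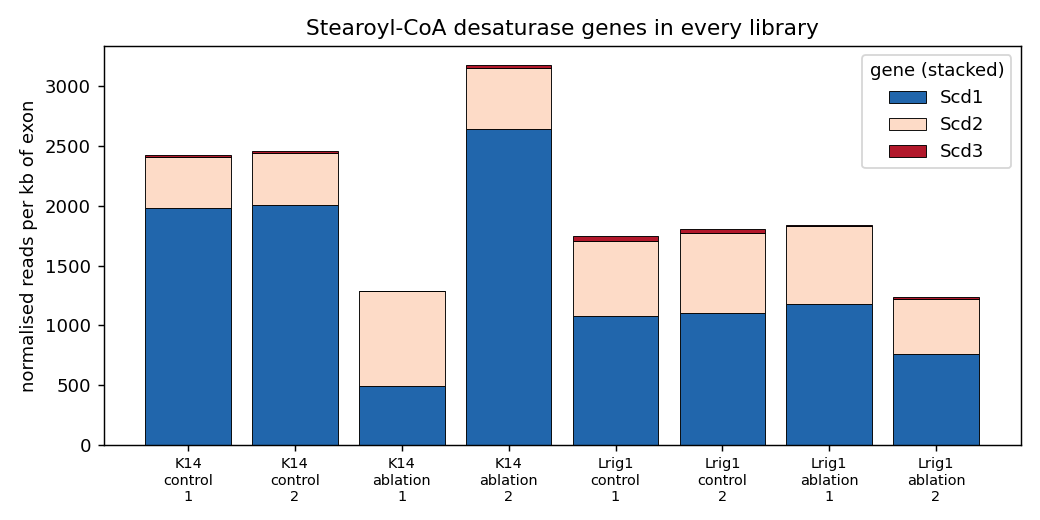
Normalised reads per kilobase of exon (linear y axis from 0) of Scd1, Scd2 and Scd3, stacked, in each library (x axis); Scd4 is too low to draw. K14 ablation 1 is the single library in which Scd2, at 792, exceeds Scd1, at 493.

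Other genes of fatty acid synthesis and elongation were taken from a list of 25, of which 22 were tested. In K14 ablation 1 of 22 fell, Acsl3, which activates fatty acids, from 1123 and 1150.0 to 549.8 and 437 (-1.21 ± 0.15, limma adjusted p = 0.0305). In Lrig1 ablation 5 of 22 fell (3.3% of all tested genes did) and 0 rose, with a list median of -0.36 beside -0.02 over all tested genes. Elovl4, the elongase of the very long chains of barrier lipids, fell from 3162 and 3272 to 478 and 646 (-2.53 ± 0.17, limma adjusted p = 0.00103), and Elovl7 by 2.16. Acsl1, Acly and Elovl5 fell by 0.71 to 1.24. Elovl4 is also counted in the suprabasal list, of which 13 of 17 fell in Lrig1 ablation. Elovl4 and Elovl7 were also the 2 list genes whose ablation effect differed between Lrig1 and K14 (differences of -1.96 and -1.71, limma adjusted p = 0.0401 each). In K14 ablation, 10 of the 22 had replicate 1 below and replicate 2 above both controls, Fasn, Acly and Srebf1 among them, against 11.7% of all tested genes. Between the controls 4 of the 22 were higher in Lrig1 and 1 was lower, where 8.79% of all tested genes passed. Higher were Elovl4 (log2 difference 1.73), Elovl7 (1.37), Elovl1 (0.75) and Slc27a1 (1.47), and lower was Acsl3 (-1.16).

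Among the 15 tested genes of wax, triglyceride and sterol esterification, 0 passed in K14 ablation and 2 fell in Lrig1 ablation (3.3% of all tested genes did). These were the acyltransferase genes Agpat4 (-2.42 ± 0.18, limma adjusted p = 0.00159) and Agpat3 (-1.39 ± 0.19, limma adjusted p = 0.0118). Far1, the paralog of Far2, was at 775 and 813 in K14 control, 1065 in K14 ablation 1 and 787 in K14 ablation 2, so it did not share the split of Far2. Of 14 tested lipid droplet and lipolysis genes, 0 passed in K14 ablation and 2 fell in Lrig1 ablation (3.3% of all tested genes did). These were Pnpla3, by 1.5, and Abhd5, the activator of triglyceride lipase, by 0.77 on the log2 scale. The list medians in Lrig1 ablation were 0.04 for esterification and -0.43 for droplets. Between the controls Agpat3 (log2 difference 1.72), Agpat4 (1.18) and Pnpla3 (1.34) were higher in Lrig1, and 0 genes of either list were lower (8.79% of all tested genes passed). The K14 split of the 10 genes was found in 5 of 15 and 7 of 14 (11.7% of all tested genes), Gpam, Cidea, Lpl and Mgll among them.

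Of 18 tested partners and targets of PPAR gamma, 0 passed in K14 ablation, and 2 fell in Lrig1 ablation (list median -0.05), where 3.3% of all tested genes fell. Cebpa, a transcription factor of lipid-storing cells, fell in Lrig1 ablation from 1225 and 1366 to 479 and 469 (-1.45 ± 0.21, limma adjusted p = 0.0134), as did Fabp4. Between the controls Fabp4 (log2 difference 3.38), Cebpa (1.05) and Cebpb (1.27) were higher in Lrig1, and 0 of the 18 were lower (8.79% of all tested genes passed). The K14 split was shared by 7 of the 18, with Pdk4 at 225 and 246 in control, 21.9 in ablation 1 and 459.9 in ablation 2, and Cd36 at 133 and 102, 13.4 and 152. Of 11 listed melanocortin genes, 7 were in the table and 1 was tested, Agrp, which did not pass in any of the 5 comparisons. Of 8 desaturase relatives, 0 passed in K14 ablation and 1 fell in Lrig1 ablation (3.3% of all tested genes did). It was Degs1, which makes ceramide (-1.0 ± 0.22, limma adjusted p = 0.0474).

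The sebaceous lineage list holds genes that mark the gland, its duct and its stem cells, some of which, such as Cidea, Acsbg1, Cers4 and Apoe, also act on lipids. Its 17 genes summed to 25684 and 25888 normalised reads in K14 control and 65252 and 68390 in Lrig1 control, most of the gap being Krt79, and the list median between the controls was 0.09. Between the controls 5 of the 17 were higher in Lrig1: Krt79, a keratin of the sebaceous duct and infundibulum (1395 and 1246 to 28938 and 31438, 4.51 ± 0.85, limma adjusted p = 0.0178), Gata6, Prdm1, Sox9 and Lrig1. Myc was lower (-0.89 ± 0.18, limma adjusted p = 0.0227). Of 17 list gene calls between the controls over the lipid and lineage lists, 1 at most held without any single control library; of 13 in Lrig1 ablation, Elovl4 alone held without Lrig1 control 1 or without Lrig1 control 2, and 6 held without either K14 control library. Acsl3 was lost without each of the 4 control libraries, as were the calls of Elovl4 and Elovl7 in the difference of effects. Scaled to library totals, 8 of the 13 calls in Lrig1 ablation held, while Degs1, Acly, Elovl5, Pnpla3 and Abhd5 were lost. With only the Lrig1 groups compared 7 of the 13 held, and Agpat3 was lost as well. In K14 ablation 0 of 17 passed, and 10 of 17 had the split of the lipid genes (11.7% of all tested genes), among them Acsbg1, Mgst1, Apoe and Krt79. In Lrig1 ablation Lgr6, a stem cell receptor of the isthmus above the bulge, rose from 346 and 364 to 926 and 903.5 (1.36 ± 0.27, limma adjusted p = 0.0332). There 10 of 17 lay below both controls in both replicates (26.4% of all tested genes did).

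**Figure D5:**
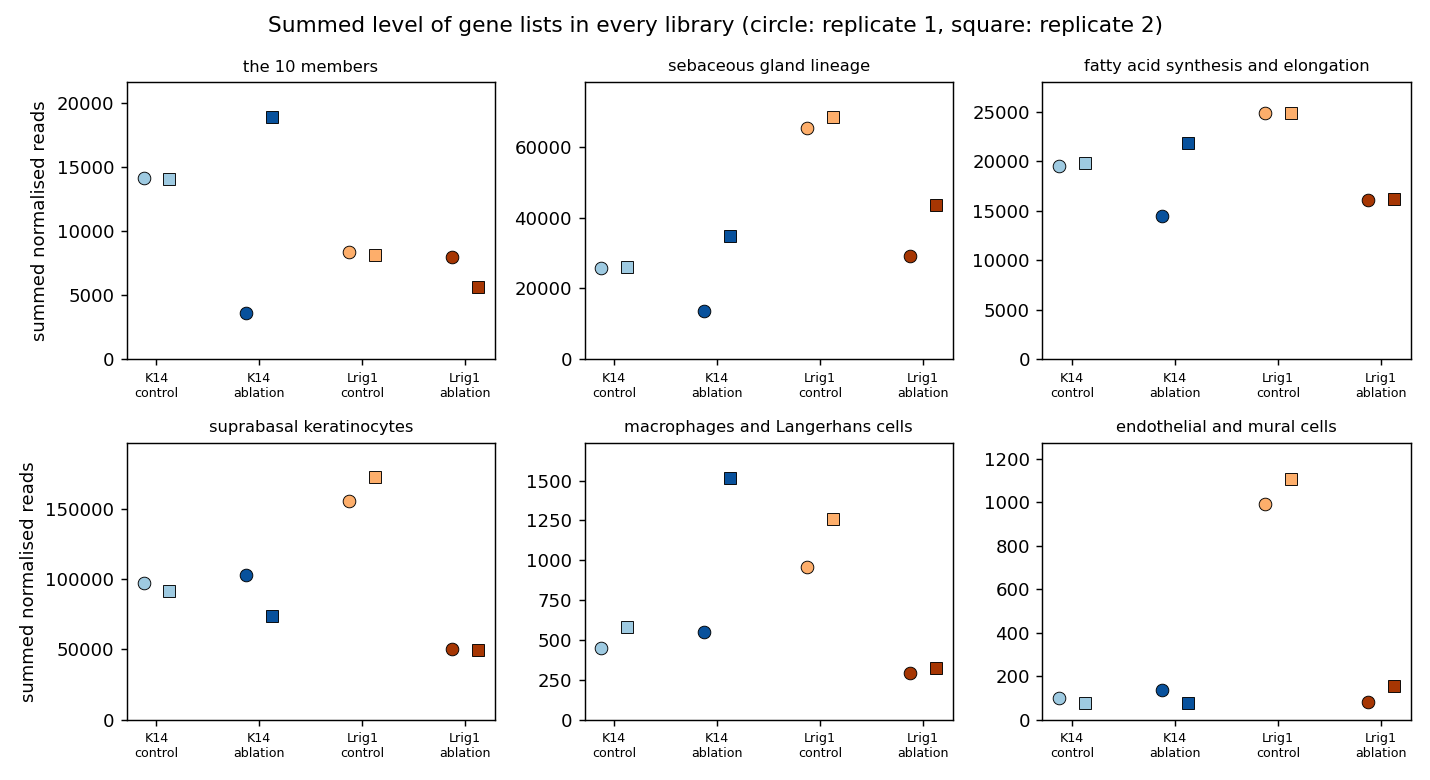
Summed normalised reads (linear y axes from 0) of 6 gene lists in each library, by group on the x axis; circles are replicate 1 and squares replicate 2. The 10 lipid genes and the sebaceous lineage list place K14 ablation 1 below and K14 ablation 2 above the K14 controls, and in sum the suprabasal list does the reverse. In that list Krt1 lies above both K14 controls in both replicates, while 11 of the 17 genes lie below both in both (25.7% of all tested genes).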

How the data were processed

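The 8 libraries were made from polyA RNA of sorted cells with the Ovation Solo RNA-seq system, per the labels' protocols, and processed with Trimmomatic, STAR, Picard and HTSeq 0.11.1 on GRCm38 (mm10), per the submitters' processing notes. The authors deposited a normalised signal per gene; its values were whole multiples of 1 step per library (tolerance 0.001), so whole reads were recovered for 100% of values. Ablation columns carry other words than the labels and were matched by elimination. Values plus a pseudocount of 1 were log2 transformed and tested with limma 3.58.1 (variance trend, 4 group means, all 8 libraries) for the 18140 genes that reached 1e-06 of a library's total in 2 or more libraries. P-values were Benjamini-Hochberg adjusted over all of them. All 10 members passed that filter. Alternatives used edgeR 4.0.16 and DESeq2 1.42.0 on the recovered reads, other settings, and 1 library less. The fits were also run on simulated reads of 1 common dispersion. That run checks the code and says nothing of the error rate in these data. Members, gene lists and tests were chosen with earlier results of these data known. Named genes are the members, list genes past the threshold (at most 6 per list and comparison), the 10 most like the members' mean profile (1 is not reported here) and the 5 most like Scd1; others, such as Scd2 and Far1, were chosen after their values were seen.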

Additional observations from a re-analysis of the deposited data

How the results depend on the processing

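Apart from leaving out a single library, and with the fits of only the groups compared counted in, 417 of 440 estimates of the 10 genes kept their direction and their side of the threshold, 15 gained a call and 8 changed sign. By edgeR and DESeq2 these were Elovl3 in K14 ablation (0.16 and 0.17), Pparg in Lrig1 against K14 ablation (-0.66 and -0.68) and Far2 in the difference of effects (-0.26 and -0.27); scaled to library totals they were Scd1 (0.038) and Mc5r (0.17) in Lrig1 ablation. The cause was not tested. That scaling moved the median of all genes from -0.02 to 0.23 in Lrig1 ablation and changed its split of calls from 139 higher and 598 lower to 551 and 365, and that between the controls from 1183 and 411 to 955 and 610. Between the controls 0 of 10 genes passed, where 1594 of all 18140 tested genes did. DESeq2 called 1 of the 10 (1619 of all 18140). Array weights called 7 (6747 of all 18140), and the fit of only the groups compared called 7 (7323 of all 17057). With 1 library left out, the members called ranged from 0 to 7 in K14 ablation against control, from 0 to 4 in Lrig1 ablation against control, from 0 to 6 in Lrig1 against K14 control, from 0 to 8 in Lrig1 against K14 ablation, from 0 to 3 in the difference of effects. Where the sign changed, the estimates ranged as follows. In K14 ablation against control they ran from -2.01 to 0.41 (Scd1), from -1.51 to 0.65 (Scd3), from -2.08 to 0.48 (Mc5r), from -3.08 to 0.87 (Pparg), from -2.26 to 0.66 (Plin2), from -0.23 to 0.55 (Awat2), from -1.72 to 0.20 (Far2), from -1.15 to 0.27 (Dgat2), from -2.23 to 1.06 (Elovl3), from -1.93 to 0.19 (Soat1). In Lrig1 ablation against control they ran from -0.53 to 0.11 (Scd1), from -0.84 to 0.34 (Awat2). In Lrig1 against K14 ablation they ran from -1.49 to 0.94 (Scd1), from -1.30 to 0.86 (Scd3), from -2.18 to 0.38 (Mc5r), from -1.60 to 2.35 (Pparg), from -1.72 to 1.20 (Plin2), from -0.10 to 1.09 (Awat2), from -1.11 to 0.81 (Far2), from -2.03 to 1.26 (Elovl3), from -1.51 to 0.61 (Soat1). In the difference of effects they ran from -0.62 to 1.8 (Scd1), from -0.56 to 2.00 (Mc5r), from -0.42 to 2.50 (Plin2), from -1.0 to 0.19 (Awat2), from -0.95 to 0.97 (Far2), from -2.53 to 0.75 (Elovl3). Counts over all genes moved by more than 1.5 times as follows. K14 ablation against control gave 34, 220 by DESeq2, 21 with the replicate block, 477 with array weights, 0 with only the groups compared, and 0 to 740 with 1 library left out. Lrig1 ablation against control gave 737, 451 with array weights, 170 with only the groups compared, and 5 to 2498 with 1 library left out. Lrig1 against K14 control gave 1594, 6747 with array weights, 7323 with only the groups compared, and 1 to 3539 with 1 library left out. Lrig1 against K14 ablation gave 121, 75 with no filter on low values, 664 by DESeq2, 31 with array weights, 0 with only the groups compared, and 0 to 4041 with 1 library left out. The difference of effects gave 36, 83 with a pseudocount of 5, 5 with no filter on low values, 308 by DESeq2, 0 scaled to library totals, 1 with the replicate block, 146 with array weights, and 0 to 2022 with 1 library left out. The replicate numbers did not pair the samples (same-numbered deviations correlated at -0.05 to 0.08), and the replicate block called the same number of members as the main fit in each comparison, 0, 1, 0, 0 and 0; among named list genes it ended the calls of Acsl3 in K14 ablation, of Degs1, Elovl5 and Abhd5 in Lrig1 ablation, and of Elovl4 and Elovl7 in the difference of effects. Depth limits Awat2, which rests on 8 to 27 reads per library, and with 2 libraries a group a single library decides most calls.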
